A study of Oryza sativa Japonica Group with 21 samples.

Results

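Carbon fixation genes were followed through early stamen development in rice by all probe sets that the array annotation assigns to RBCS (small subunit of Rubisco), RCAA1 (Rubisco activase), ALDP (plastid aldolase) and FBPase (fructose-1,6-bisphosphatase), by gene symbol or synonym. The rule found 15 probe sets of 5 genes, out of 57258 probe sets without controls and 17905 annotated genes. RBCS and RCAA1 had 4 probe sets each and ALDP had 3. The name FBPase matched 2 loci with 2 probe sets each. LOC4332364 carries that synonym alone, with no compartment given, and LOC4325071 is also listed as CFBP1 and MOC2, the cytosolic enzyme. It is called CFBP1 here.

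The 21 Affymetrix rice arrays covered 7 groups, each with 3 biological replicates, all from Oryza sativa ssp. japonica cultivar Zhonghua 15, with no mutation or treatment in the labels. The leaf groups were the primordium of leaf 3, cut out of embryos of seeds that had been in water for 2 to 3 days, and leaf 3 when it had just expanded. The stamen groups were stages 2, 3, 4, 5 and 6, dissected from spikelets, each staged on sections of the same panicle. The plants came from a field or from a chamber kept at 30 ± 2 °C, lit for 11 h and dark for 13 h a day, without a record of the place for single samples. The labels do not say whether a replicate was 1 plant or a pool. Each array was made from 50 to 300 ng of RNA amplified in repeated rounds. The leaves served the study as controls because leaf and stamen are homologous organs.

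Rubisco joins carbon dioxide to ribulose bisphosphate in the chloroplast stroma, which opens the Calvin cycle. Its small subunits are made from a nuclear gene family, and its large subunit from the chloroplast genome, which is not among the members. Rubisco activase uses ATP to free the active sites of the enzyme from bound sugar phosphates, and rice makes a large and a small form of it from 1 gene by alternative splicing. Plastid aldolase joins triose phosphates, and plastid fructose-1,6-bisphosphatase then splits off a phosphate in the branch that regenerates the acceptor sugar. Cytosolic fructose-1,6-bisphosphatase catalyses the same reaction on the path from exported triose phosphates to sucrose. Green leaves carry these transcripts in abundance.

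The 3 expanded leaf arrays correlated less well with each other (r of 0.931 to 0.949 over all probe sets) than the arrays of any other group (0.981 to 0.995). The log2 difference between the 3' and 5' probe sets of the actin and GAPDH controls, a sign of RNA and amplification quality, was 3.37 on expanded leaf replicate 3 and 1.73 and 1.96 on the other replicates. It was 3.19 to 3.41 at stage 2 and 1.27 to 2.69 on the other arrays. Stage 2 thus lay apart from the other stamen stages and the primordium. A fit that holds this difference therefore separates it poorly from stage 2, and a call lost there does not tell which of them counts. All 7 stamen and floral markers were higher in stamens than in either leaf group. The floral gene OsMADS58 read 5.76, 6.29 and 10.04 on expanded leaf replicates 1, 2 and 3, against 4.42 to 4.64 in the primordium and 10.27 to 11.32 in stamens. OsMADS2, OsMADS4 and OsMADS16 were also highest on replicate 3 among the expanded leaf arrays, at 7.46, 7.16 and 8.68. OsMADS3, OsMADS7 and OsMADS8 were not, at 5.15, 5.47 and 5.42. All 5 green leaf markers were higher in the expanded leaf than in the primordium and in stamens, and their mean log2 value was 11.61 to 12.86 in the expanded leaf, 6.80 to 7.09 in the primordium and 5.71 to 7.30 in stamens. Of 3 lemma and palea markers 2 were higher in stamens than in each leaf group. The 3 carpel markers did not pass between stamens and either leaf group. Of 5 embryo and seed markers, 3 were lower and 1 higher in stamens than in the primordium. Among them, LEA19 read 5.15, 5.72 and 11.27 on expanded leaf replicates 1, 2 and 3. EM was also highest on replicate 3 among the expanded leaf arrays, at 7.12. RAB16C, GLUA-2 and GLB1 were not, at 7.62, 9.99 and 10.66. The part of these differences in the results was not tested.

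All values are RMA log2 values, so a difference of 1 is a 2-fold change, and levels of different probe sets are not comparable. Differences come from 1 limma model of the 7 group means. Its spread is pooled over all 7 groups. The p-values and intervals of every comparison thus also take in the less uniform expanded leaf arrays, even where these are not compared. A probe set was called changed at an adjusted p below 0.05 (Benjamini-Hochberg over all 57258 probe sets) and at least a 2-fold difference, and "stamen" without a stage means the mean of the 5 stages. In bulk tissue, fewer cells of a type and less RNA per cell cannot be told apart.

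On all 15 probe sets, the 3 expanded leaf arrays lay above every stamen array and every primordium array. The share of all probe sets with such a separation was not counted. Of the 15, 14 were called higher in the expanded leaf than in the primordium, where 9.84% of all probe sets were, and 14 were called lower in stamens than in the expanded leaf, where 9.97% were. The median difference of stamens from the expanded leaf was -5.99 over the members and -0.08 over all probe sets. Set against the primordium, 1 probe set was higher in stamens, where 7.59% of all probe sets were, and none was lower, where 6.71% were. Each pair of these comparisons shares the arrays of 1 tissue. The plot of values by group shows the same gap for all 5 genes.

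**Figure D1:**
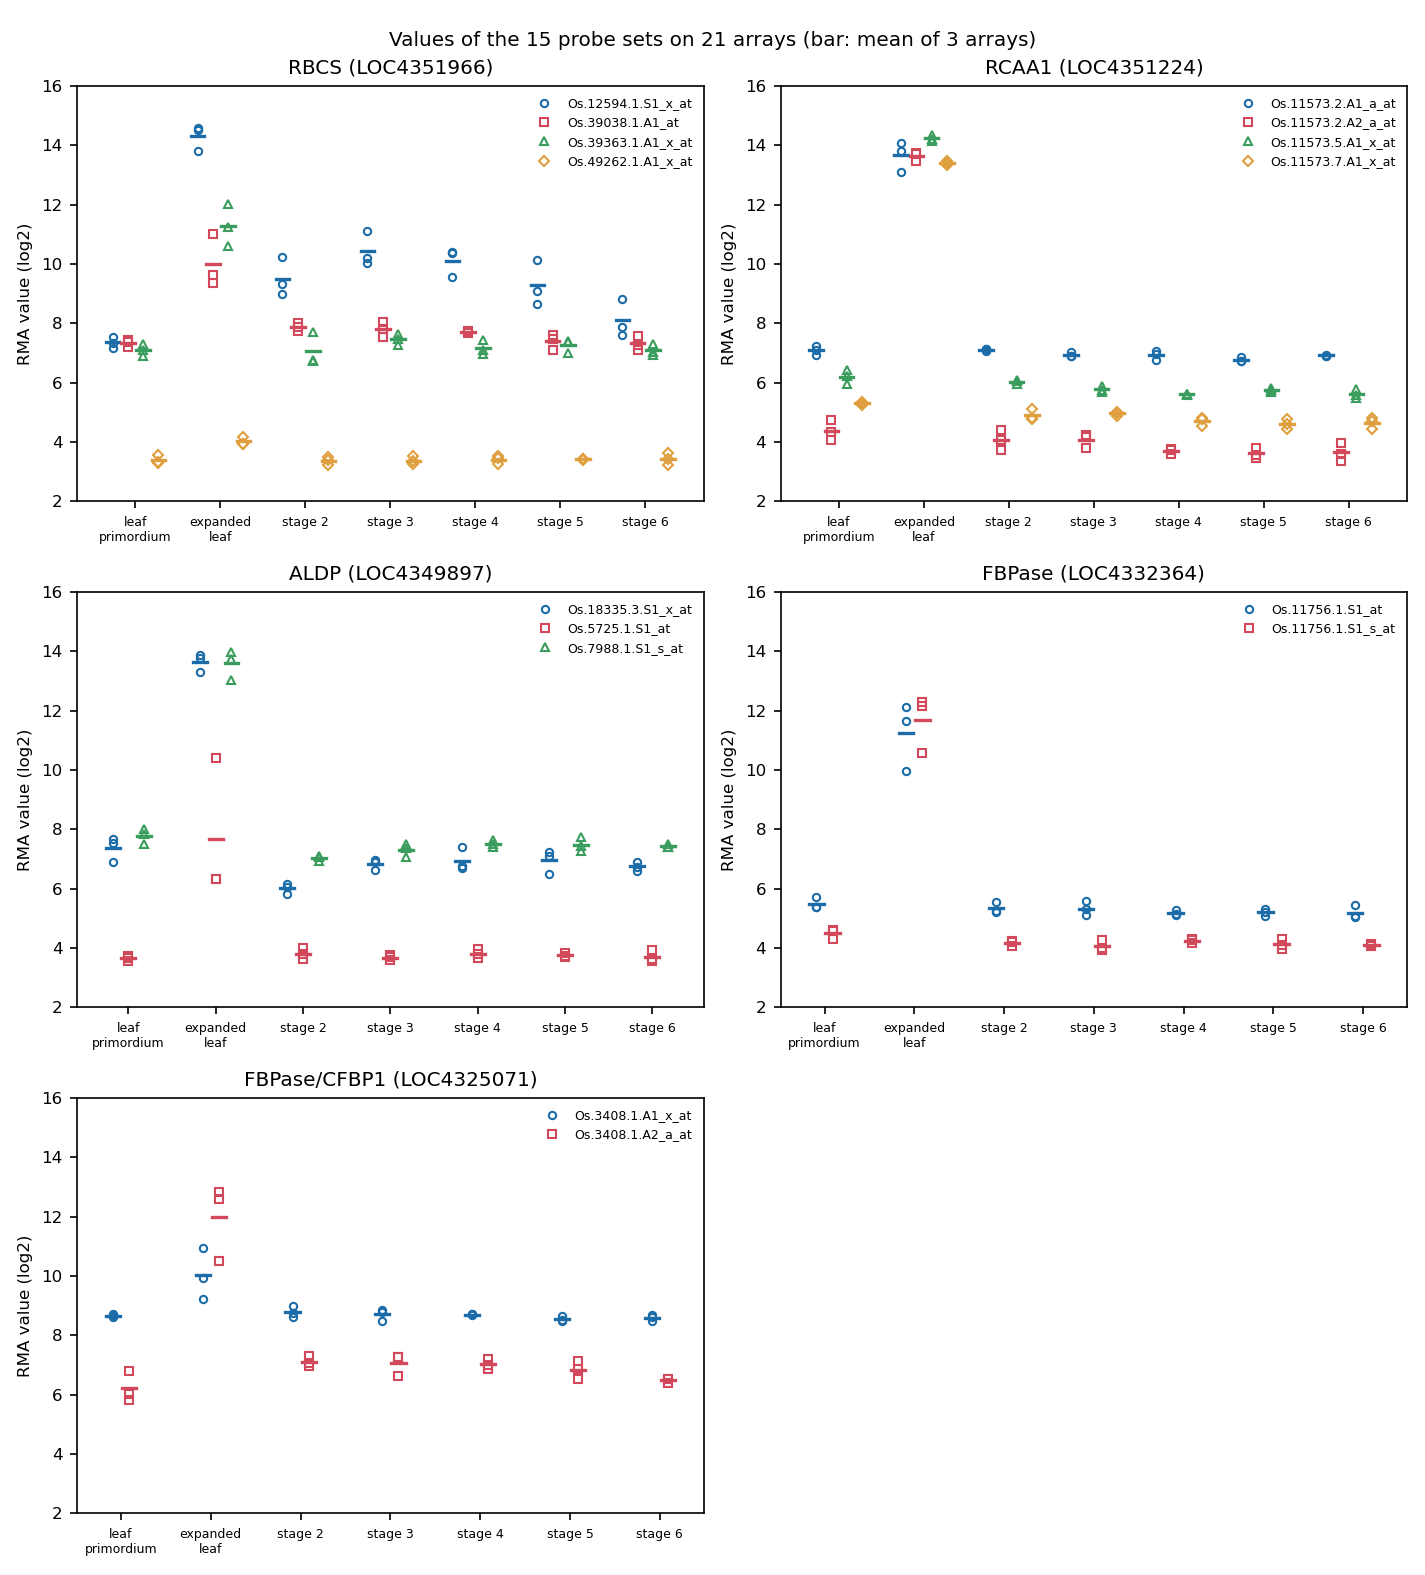
RMA log2 values of the 15 probe sets on each of the 21 arrays, in 1 panel per gene, with a bar at the mean of the 3 arrays of a group. The expanded leaf stands above all other groups on every probe set, and RBCS Os.12594.1.S1_x_at is the probe set on which stamens also stand above the primordium.

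RBCS, the small subunit gene at LOC4351966, was high in the expanded leaf on 3 of its 4 probe sets, and 1 of them also read above the primordium in stamens. Os.12594.1.S1_x_at read 14.57, 13.80 and 14.53 in the expanded leaf and 7.18, 7.54 and 7.35 in the primordium. The stamen arrays gave 9.31, 8.99 and 10.22 for stage 2, 11.10, 10.03 and 10.21 for stage 3 and 10.40, 10.37 and 9.56 for stage 4. They gave 8.64, 9.09 and 10.12 for stage 5, then 7.60, 8.82 and 7.87 for stage 6. Every stamen array was thus above every primordium array and below every expanded leaf array.

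The stamen mean of Os.12594.1.S1_x_at was 9.49 ± 0.99 (SD, n = 15), against 14.30 ± 0.43 in the expanded leaf and 7.36 ± 0.18 in the primordium (n = 3 each). It was 28.1-fold below the expanded leaf (log2 difference -4.81, SE 0.33, limma adjusted p = 9.40e-10) and 4.38-fold above the primordium (2.13, SE 0.33, limma adjusted p = 5.17e-05). By stage, the difference from the primordium was 2.15, 3.09, 2.75 and 1.92 at stages 2, 3, 4 and 5, each called, and 0.74 at stage 6, which did not pass (limma adjusted p = 0.232). Of all probe sets, 7.83%, 7.41%, 7.37%, 8.14% and 8.16% were called higher at these 5 stages. In the order of group means, the expanded leaf came before stages 3, 4, 2, 5 and 6 and then the primordium. Values overlapped between each neighbouring pair from stage 3 down to stage 6.

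None of the other RBCS probe sets was called above the primordium in stamens. Os.39363.1.A1_x_at read 12.01, 10.62 and 11.26 in the expanded leaf, 6.89, 7.30 and 7.11 in the primordium, and 6.73 to 7.70 in stamens (median 7.28). Os.39038.1.A1_at read 11.00, 9.37 and 9.62 in the expanded leaf, 7.45, 7.37 and 7.21 in the primordium, and 7.09 to 8.05 in stamens (median 7.66). On both, the expanded leaf stood apart and the stamen and primordium arrays overlapped, although on Os.39038.1.A1_at the arrays of stages 2 to 4 (7.53 to 8.05) all lay above the primordium, by 0.52, 0.45 and 0.37, none called. Stamens were below the expanded leaf by 17.0-fold on Os.39363.1.A1_x_at (log2 difference -4.09, SE 0.22) and by 5.20-fold on Os.39038.1.A1_at (-2.38, SE 0.22). Their differences from the primordium were 0.11 (95% interval -0.36 to 0.58) and 0.27 (-0.20 to 0.75). The pooled spread behind these intervals takes in the expanded leaf, with an SD of 0.69 and 0.88. In the primordium the SD was 0.21 and 0.12.

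Os.49262.1.A1_x_at was near the bottom of the scale everywhere. It read 4.17, 3.94 and 3.94 in the expanded leaf, 3.29, 3.58 and 3.32 in the primordium and 3.22 to 3.62 in stamens (median 3.43), where the median of all probe sets on an array was 5.82 to 5.88. The expanded leaf was still above all other arrays, by 0.62 over stamens (limma adjusted p = 3.08e-05), which is under 2-fold and so was not called.

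Rice holds further small subunit genes, and their near-identical copies share probes, so a small subunit probe set need not report 1 gene. The annotation gives 5 probe sets to RBCS1, LOC4352016 and LOC4352021 together. Of these, Os.28133.1.S1_x_at read 14.49, 13.43 and 14.02 in the expanded leaf, 7.98, 7.99 and 7.83 in the primordium, 9.48, 9.02 and 10.01 at stage 2 and 7.95, 8.30 and 7.92 at stage 6. Its arrays of stages 3 to 5 read 8.19 to 9.21, so all arrays of stages 2 to 5 lay above the primordium, and those of stage 6 overlapped it. The difference from the primordium was 1.57 at stage 2 (SE 0.27, limma adjusted p = 0.000213, called), 0.85 at stage 3 (limma adjusted p = 0.0275) and 0.76 over all stages (limma adjusted p = 0.00866), the latter values under 2-fold. The stage 2 arrays had the high 3' to 5' difference, which this fit does not hold. On Os.28133.1.S1_s_at, for the same 3 genes, the arrays of stages 2 to 5 read 7.95 to 9.09, again all above the primordium at 7.62 to 7.83. Its difference was largest at stage 3, at 0.92 (limma adjusted p = 0.0189, under 2-fold), and 0.69 at stage 2. Os.28218.1.S1_at and Os.28218.1.S1_x_at exceeded the primordium by at most 0.20 and 0.33 at any stage, not called. Against the expanded leaf these 4 probe sets were called lower in stamens, with differences from -5.29 to -7.94, as were LOC4352021's own probe sets, with -5.92 and -7.55. RBCS1's own probe set Os.37819.1.S1_at read 5.02, 4.11 and 3.46 in the expanded leaf and 2.88 to 3.52 in stamens, a difference of -0.94 that was not called, and of -1.30 and called without expanded leaf replicate 3. Os.40411.1.A1_x_at, also shared by the 3 genes, differed by -0.23 and was not called.

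RCAA1, the activase at LOC4351224, was high in the expanded leaf on all 4 of its probe sets. Os.11573.2.A2_a_at read 13.70, 13.46 and 13.75 in the expanded leaf, 4.06, 4.33 and 4.73 in the primordium and 3.37 to 4.40 in stamens (median 3.76). Os.11573.7.A1_x_at read 13.48, 13.35 and 13.42 in the expanded leaf, 5.33, 5.24 and 5.33 in the primordium and 4.43 to 5.13 in stamens (median 4.79). On the latter probe set all 15 stamen arrays lay below all 3 primordium arrays, while on the former the ranges overlapped. Os.11573.5.A1_x_at read 14.20, 14.16 and 14.36 in the expanded leaf, 5.95, 6.42 and 6.23 in the primordium and 5.49 to 6.08 in stamens (median 5.76). Os.11573.2.A1_a_at read 14.07, 13.80 and 13.11 in the expanded leaf, 7.23, 7.12 and 6.94 in the primordium and 6.73 to 7.14 in stamens (median 6.91).

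The stamen mean was below the expanded leaf on all 4 activase probe sets, by 903-fold on Os.11573.2.A2_a_at (log2 difference -9.82, SE 0.15), 402-fold on Os.11573.7.A1_x_at (-8.65, SE 0.09), 357-fold on Os.11573.5.A1_x_at (-8.48, SE 0.09) and 106-fold on Os.11573.2.A1_a_at (-6.73, SE 0.13). The stamen readings of Os.11573.2.A2_a_at and Os.11573.7.A1_x_at lay below the median of all probe sets on an array. On Os.11573.5.A1_x_at the stamen mean of 5.76 lay just below that median, with some arrays above it. No detection calls were used here, so folds against such low readings may be lower bounds, and no order is read from them. Against the primordium the differences were small. They were -0.55 on Os.11573.2.A2_a_at, -0.53 on Os.11573.7.A1_x_at and -0.44 on Os.11573.5.A1_x_at, with limma adjusted p of 0.00863, 0.000221 and 0.000707, and none reached 2-fold. On Os.11573.2.A1_a_at the difference was -0.16 (limma adjusted p = 0.395).

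ALDP, the plastid aldolase at LOC4349897, read high in the expanded leaf on 2 of its probe sets and unevenly on the other. Os.18335.3.S1_x_at read 13.76, 13.88 and 13.30 in the expanded leaf and 6.91, 7.68 and 7.54 in the primordium. In stamens it read 5.84, 6.06 and 6.17 at stage 2, below all primordium arrays, and 6.50 to 7.39 at stages 3 to 5, where it overlapped them. The stage 6 arrays, at 6.59 to 6.91, lay below the primordium arrays, the closest of them by less than 0.01 (means 6.75 and 7.38). Os.7988.1.S1_s_at read 13.98, 13.76 and 13.04 in the expanded leaf, 7.52, 8.01 and 7.83 in the primordium and 6.94 to 7.73 in stamens (median 7.41).

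Stamens were below the expanded leaf by 124-fold on Os.18335.3.S1_x_at (log2 difference -6.95, SE 0.18) and by 75.5-fold on Os.7988.1.S1_s_at (-6.24, SE 0.15). At stage 2, Os.18335.3.S1_x_at was called lower than in the primordium (-1.36, limma adjusted p = 0.000266), where 7.59% of all probe sets were, and Os.7988.1.S1_s_at differed by -0.75 (limma adjusted p = 0.00711), under 2-fold. The stage 2 arrays are those with the high 3' to 5' difference. In a fit that also held the 3' to 5' difference, the value for Os.18335.3.S1_x_at was -0.85 (limma adjusted p = 0.0912).

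Os.5725.1.S1_at, the other ALDP probe set, read 10.41 on expanded leaf replicate 1 and 6.33 and 6.31 on replicates 2 and 3, against 3.58 to 3.74 in the primordium and 3.56 to 4.00 in stamens. All 3 leaf arrays were above the rest, but 1 of them was far above the other 2. The difference of stamens from the expanded leaf was -3.93 (SE 0.52), and -2.57, -4.61 and -4.62 without expanded leaf replicates 1, 2 and 3. The expanded leaf exceeded the primordium by 4.03, and by 2.66, 4.70 and 4.71 without the same replicates. The stamen and primordium readings all lay below the median of all probe sets on an array, so these differences may be lower bounds.

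FBPase at LOC4332364 was likewise high in the expanded leaf alone. Os.11756.1.S1_at read 12.11, 9.96 and 11.64 in the expanded leaf, 5.37, 5.38 and 5.73 in the primordium and 5.03 to 5.57 in stamens (median 5.21). Os.11756.1.S1_s_at read 12.16, 10.58 and 12.29 in the expanded leaf, 4.31, 4.56 and 4.60 in the primordium and 3.94 to 4.31 in stamens (median 4.12). On both, expanded leaf replicate 2 was the lowest of its group, and on the latter all stamen arrays lay below the primordium arrays, the closest of them by less than 0.01. The differences of stamens from the expanded leaf were -5.99 (SE 0.27) and -7.54 (SE 0.22), and the former was -6.63 without expanded leaf replicate 2, with a difference of the expanded leaf from the primordium that went from 5.74 to 6.38. Against the primordium they were -0.25 (95% interval -0.83 to 0.32) and -0.35 (-0.83 to 0.12). These intervals rest on the pooled spread, not on that of the tissues compared. The SD was 1.13 and 0.95 in the expanded leaf, 0.20 and 0.15 in the primordium and 0.17 and 0.12 over the stamen arrays. All stamen readings of both probe sets lay below the median of all probe sets on an array, which was 5.82 to 5.88. The differences from the expanded leaf may therefore be lower bounds.

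CFBP1, the cytosolic fructose-1,6-bisphosphatase at LOC4325071, gave 2 unlike readings. Os.3408.1.A2_a_at read 12.83, 10.51 and 12.59 in the expanded leaf, 5.82, 6.03 and 6.81 in the primordium and 6.39 to 7.29 in stamens (median 6.95). Os.3408.1.A1_x_at read 10.93, 9.24 and 9.92 in the expanded leaf, 8.69, 8.60 and 8.70 in the primordium and 8.47 to 8.98 in stamens (median 8.67). The stamen and primordium arrays overlapped on both.

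Stamens were below the expanded leaf by 33.7-fold on Os.3408.1.A2_a_at (log2 difference -5.08, SE 0.33) but by 2.57-fold on Os.3408.1.A1_x_at (-1.36, SE 0.20). Without expanded leaf replicate 2 the former was -5.81, and its difference of the expanded leaf from the primordium went from 5.76 to 6.49. Without expanded leaf replicate 1 the latter was -0.91 and the expanded leaf exceeded the primordium by 0.91, both under 2-fold. In a fit of the expanded leaf and primordium arrays alone, the latter difference had a limma adjusted p of 0.0678. Against the primordium, stamens differed by 0.68 on Os.3408.1.A2_a_at (95% interval -0.01 to 1.37) and by 0.00 on Os.3408.1.A1_x_at (-0.43 to 0.43). Both intervals rest on the spread pooled with the expanded leaf, where the SD was 1.28 and 0.85. Over the stamen arrays the SD was 0.31 and 0.15.

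**Figure D2:**
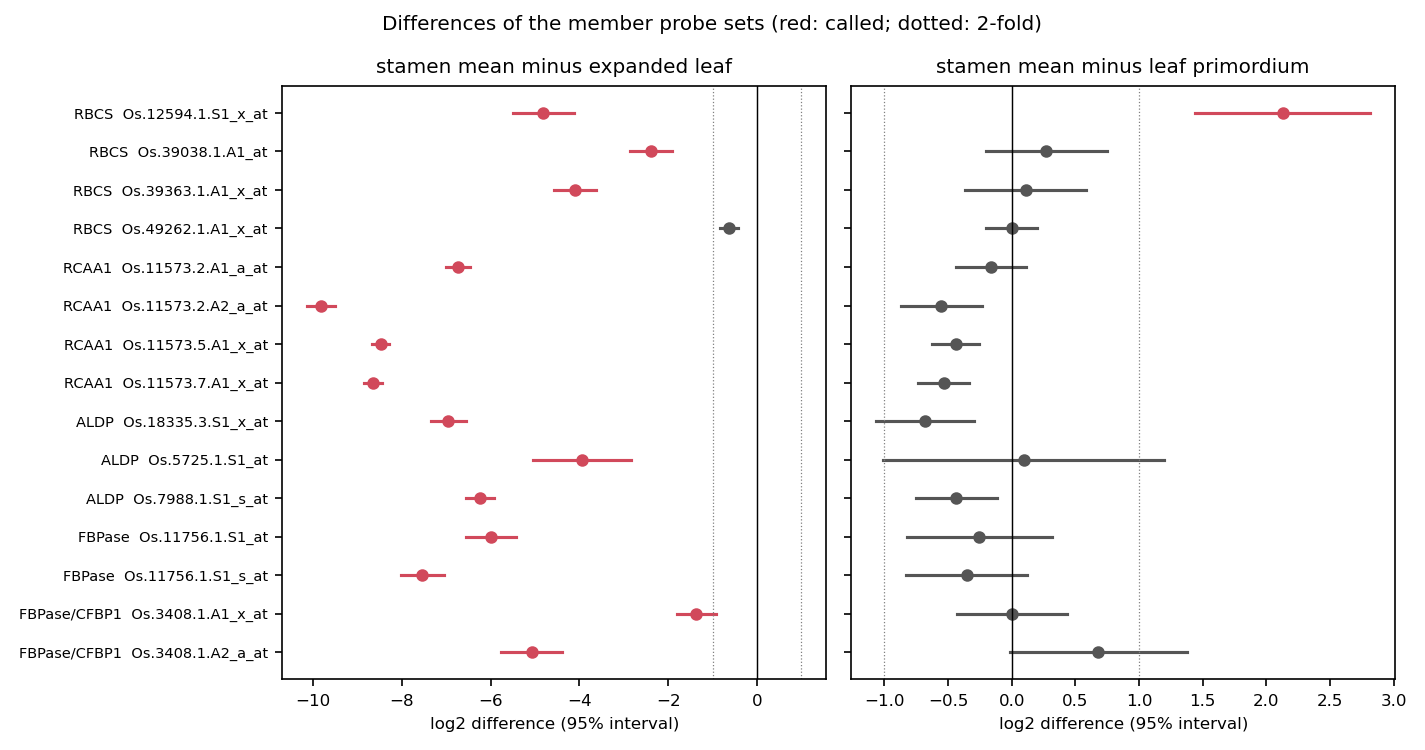
Log2 differences of the 15 probe sets between the mean of the stamen stages and each leaf group, with 95% intervals, red where called and dotted lines at 2-fold. Against the expanded leaf 14 probe sets were called lower, from -1.36 to -9.82, and against the primordium 1 was called, RBCS Os.12594.1.S1_x_at at 2.13.

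Probe sets of 1 gene gave the same direction against the expanded leaf and mostly different sizes. Each of the 17 pairs of probe sets within a gene was compared by the difference between the paired readings on 15 stamen and 3 expanded leaf arrays, with an exact two-sided permutation test over the 816 splits of the arrays and adjustment over the pairs. The sign was the same in 17 of 17 pairs, which the separation of the expanded leaf on all 15 probe sets already fixes. The size differed in 15 pairs. Probe sets that read low in stamens, such as Os.49262.1.A1_x_at, Os.5725.1.S1_at and Os.11573.2.A2_a_at, are in several of these pairs, and the part of each probe set's own range in the sizes was not tested. The exceptions were RBCS Os.12594.1.S1_x_at and Os.39363.1.A1_x_at, with differences of -4.81 and -4.09 (exact p = 0.154, adjusted 0.164), and RCAA1 Os.11573.5.A1_x_at and Os.11573.7.A1_x_at, with -8.48 and -8.65 (exact p = 0.184, adjusted 0.184). The gap between paired sizes was 3.09 between the activase probe sets Os.11573.2.A1_a_at and Os.11573.2.A2_a_at, 1.54 for FBPase and 3.71 for CFBP1, each with an exact p of 0.00245, the smallest the test can give (adjusted 0.00321). For ALDP, the value of Os.18335.3.S1_x_at minus that of Os.5725.1.S1_at was -3.02 (exact p = 0.00735, adjusted 0.00893), and Os.5725.1.S1_at minus Os.7988.1.S1_s_at was 2.30 (exact p = 0.0245, adjusted 0.0278).

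The same test against the primordium was added after the values were seen. It found a difference in 7 of 17 pairs, with the same sign in 14. RBCS Os.12594.1.S1_x_at differed there from each of the other 3 RBCS probe sets, by 1.86 to 2.13 (exact permutation test, adjusted p of 0.0139 to 0.0208). The other RBCS pairs differed by 0.11 to 0.27 and did not pass. The called stamen reading for RBCS thus came from 1 of the 4 probe sets. The suffix of Os.12594.1.S1_x_at, for probes that can match other transcripts, is shared by Os.39363.1.A1_x_at and Os.49262.1.A1_x_at. In stamens these read 0.11 and 0.00 above the primordium, not called. Whether Os.12594.1.S1_x_at reports RBCS or a related gene was not tested.

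Across the stamen stages, 1 of the 15 probe sets changed by at least 2-fold, where 7.23% of all probe sets did. It was again RBCS Os.12594.1.S1_x_at, whose stage means spanned 2.35 (limma F test, adjusted p = 0.00779), from 10.45 ± 0.57 at stage 3 to 8.10 ± 0.64 at stage 6 (SD, n = 3 each). Between stages 2 and 6 it fell by 1.41 (SE 0.42, limma adjusted p = 0.0290), where 3.47% of all probe sets were called lower. The direction held but the call was lost with the 3' to 5' covariate (-1.57, limma adjusted p = 0.189) and without stage 2 replicate 1 (-1.51) or 3 (-1.06) or stage 6 replicate 1 (-1.16) or 3 (-1.30), with a limma adjusted p of 0.0560 to 0.146. None of the 15 was called between neighbouring stages, where 1.55%, 0.00699%, 0.0437% and 0% of all probe sets were, from stage 3 against 2 to stage 6 against 5.

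The other stage spans were smaller. Those of the activase were 0.34 to 0.46 and those of FBPase at LOC4332364 were 0.16 and 0.17. ALDP Os.18335.3.S1_x_at had a span of 0.93 (limma F test, adjusted p = 0.0495), under 2-fold, with stage 2 the lowest. CFBP1 Os.3408.1.A2_a_at went from 7.10 at stage 2 (6.95 to 7.29) to 6.48 at stage 6 (6.39 to 6.54), without overlap. Its span did not pass (limma F test, adjusted p = 0.863), on a spread pooled with the leaf groups. The SD was 1.28 in the expanded leaf, 0.52 in the primordium and 0.08 to 0.37 by stage. Of the shared small subunit probe sets, Os.28133.1.S1_x_at was lower at stage 6 than at stage 2 (log2 difference -1.45, SE 0.27, limma adjusted p = 0.00120). The stage 2 arrays are those with the high 3' to 5' difference, and its value with that covariate is not given here. The plot of the small subunit probe sets by stage sets both readings side by side.

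**Figure D3:**
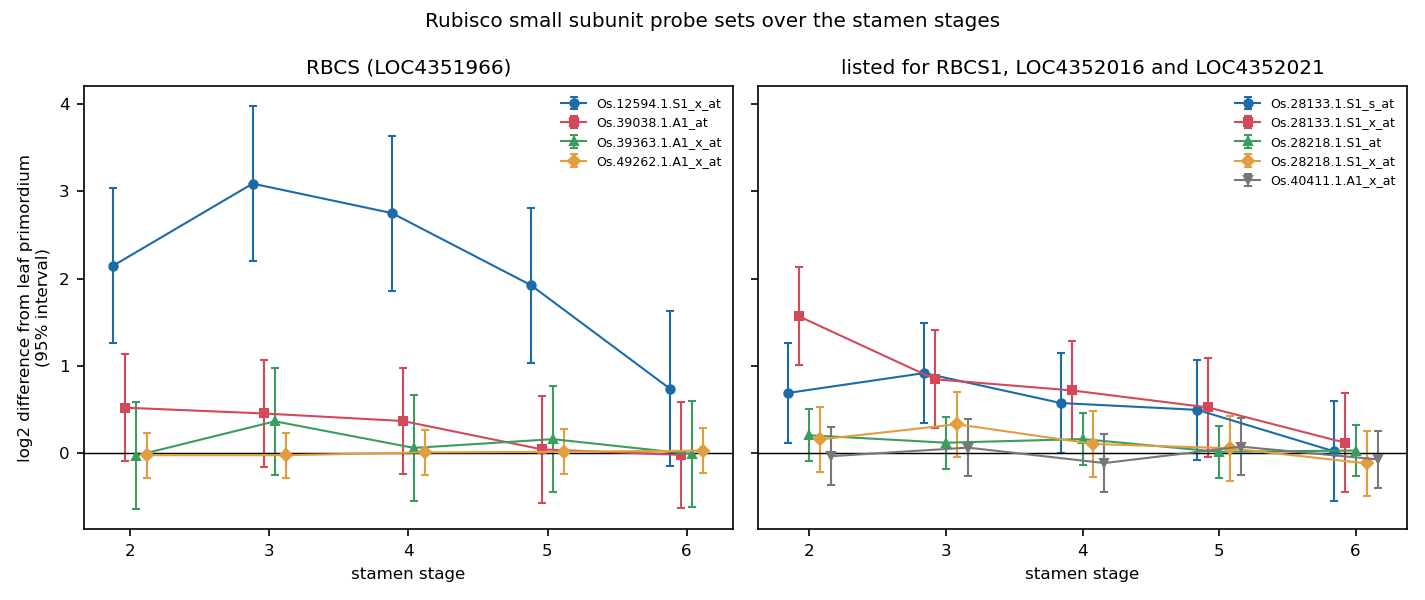
Log2 difference of each stamen stage from the primordium, with 95% intervals, for the 4 RBCS probe sets and for the 5 probe sets listed for RBCS1, LOC4352016 and LOC4352021. Os.12594.1.S1_x_at peaks at 3.09 at stage 3, Os.28133.1.S1_x_at is highest at stage 2 with 1.57, and the other probe sets stay below 1.

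Of the 5 green leaf markers, set beside the RBCS reading, 1 was called above the primordium in stamens and 2 below it. CAB2R, a chlorophyll-binding protein gene named here after its values were seen, read 9.10, 8.08 and 10.52 at stage 2 and 5.28 to 5.42 in the primordium. It exceeded the primordium by 3.89 at stage 2 (with the 3' to 5' covariate 3.56, limma adjusted p = 0.0582, not called) and by 1.70 over all stages (limma adjusted p = 0.0431), but by 1.15 over stages 3 to 6, which did not pass (limma adjusted p = 0.189). The call over all stages was also lost, at nearly the same difference, without any 1 of the primordium arrays (1.66 to 1.74, limma adjusted p of 0.109 to 0.129). With the covariate it was 1.596 (limma adjusted p = 0.101), and without single arrays of each stamen stage the limma adjusted p reached 0.0510 to 0.0600. RCABP89 and PETE differed from the primordium by 0.03 and 0.13. The called ones below it were GLK1 and GLK2, transcription factors that switch on chloroplast genes, at -2.51 and -3.004 against the primordium and -5.93 and -7.14 against the expanded leaf. The part of these genes in the RBCS reading was not tested.

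The Calvin cycle list held 6 genes that the annotation names, with the probe set of highest mean for each. These were RBCS, RBCS1, RCAA1, ALDP, FBPase at LOC4332364 and RPE, a ribulose-phosphate epimerase whose compartment the annotation does not give. Of the 6, 5 were called lower in stamens than in the expanded leaf and RBCS1 was not, with a median difference of -5.40, where 9.97% of all probe sets were lower. Only RPE and RBCS1 add to the members already counted. RPE read 13.92, 13.20 and 13.42 in the expanded leaf, 10.09, 10.10 and 9.96 in the primordium and 8.68 to 9.99 in stamens. Its stamen values were apart from the expanded leaf (-4.09, SE 0.13) and overlapped the primordium through 1 array, stage 2 replicate 3 (-0.63, limma adjusted p = 0.00113, under 2-fold). At stage 6 it read 8.68 to 8.92 and was called lower than in the primordium (-1.28, SE 0.17, limma adjusted p = 1.62e-05), where 6.66% of all probe sets were. The difference of stage 6 from stage 2 for RPE was -0.95 (limma adjusted p = 0.000993), under 2-fold, and it passed 2-fold without stage 2 replicate 1 (-1.07) or stage 6 replicate 1 (-1.02). No annotated probe set matched the list of Rubisco assembly factors.

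The cytosolic list held 9 genes, forms of these enzymes that act in glycolysis and sucrose synthesis. Of the 9, 2 were called higher in stamens than in the expanded leaf, 1 lower and 6 not, with a median difference of -0.06, against 13.3% of all probe sets higher and 9.97% lower. The lower one was CFBP1, entered by Os.3408.1.A1_x_at at -1.36, while its other probe set, at -5.08, lies within the range of the Calvin cycle list. The higher ones were FBA1, an aldolase also listed as cALD, and GAPC3, a glyceraldehyde-3-phosphate dehydrogenase of glycolysis. FBA1 read 9.71, 10.28 and 11.20 in the expanded leaf, 13.37, 13.34 and 12.78 in the primordium and 11.58 to 12.29 in stamens, with no overlap between the 3 tissues. GAPC3 read 11.02, 10.88 and 11.65 in the expanded leaf, 13.78, 13.81 and 13.96 in the primordium and 11.76 to 13.20 in stamens. Stamens exceeded the expanded leaf by 1.50 (SE 0.20) for FBA1 and by 1.38 (SE 0.21) for GAPC3, and differed from the primordium by -1.27 and -1.28, both called lower. FBA1, FBA2, FBA3 and TPI were placed on this list by name, since the annotation has no compartment field.

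**Figure D4:**
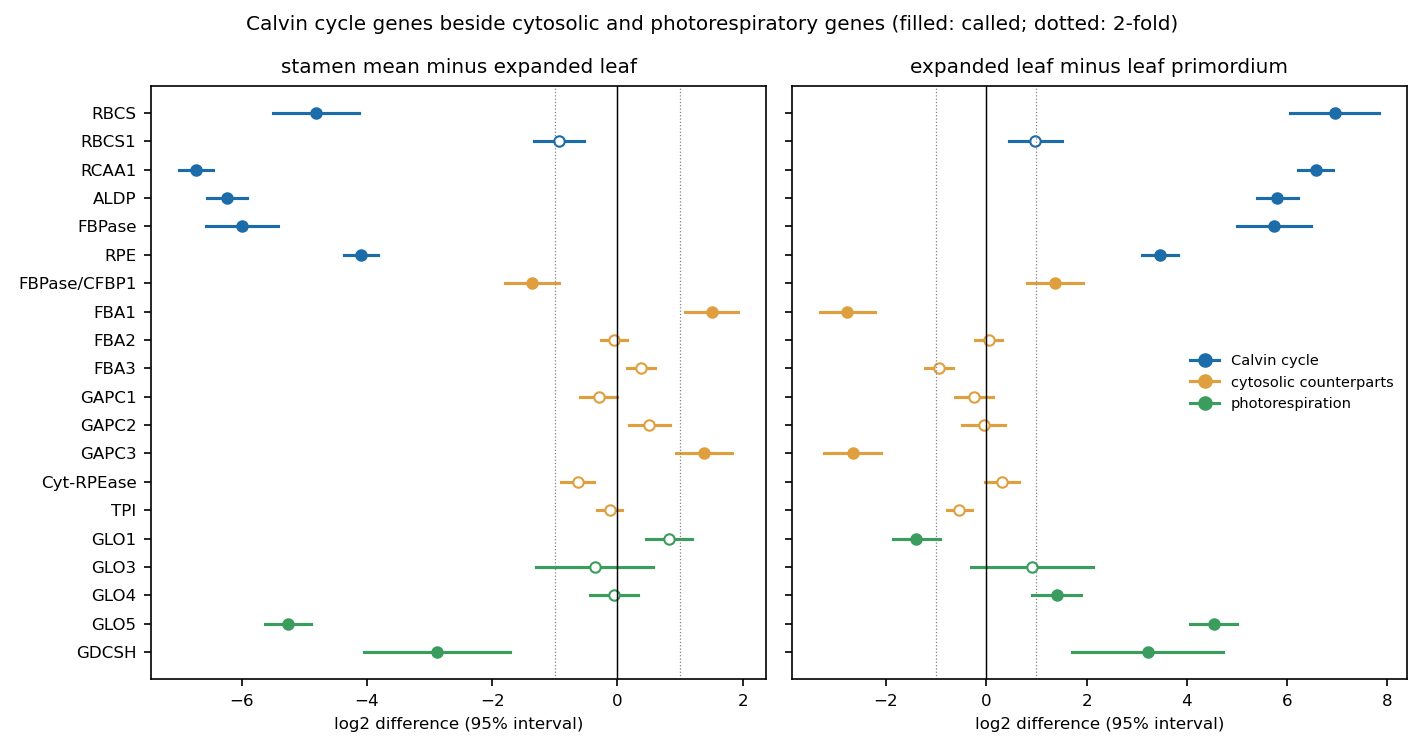
Log2 differences, with 95% intervals, of the 20 genes of the Calvin cycle, cytosolic and photorespiration lists for stamens against the expanded leaf and for the expanded leaf against the primordium, filled where called and dotted at 2-fold. In the left panel 5 of 6 Calvin cycle genes lie at or below -4.09, while the 9 cytosolic genes lie between -1.36 and 1.50, with CFBP1 plotted by Os.3408.1.A1_x_at (its other probe set is at -5.08).

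Photorespiration, which salvages the carbon of Rubisco's reaction with oxygen, was represented by 5 named genes. GLO5, a glycolate oxidase, read 13.27, 13.11 and 13.11 in the expanded leaf, 8.57 to 8.67 in the primordium and 7.36 to 8.76 in stamens, and was lower in stamens than in the expanded leaf (log2 difference -5.26, SE 0.17). GDCSH, the H protein of glycine decarboxylase, read 12.84, 7.99 and 11.20 in the expanded leaf and 7.15 to 8.15 in stamens, so replicate 2 lay within the stamen range. Its difference was -2.88 (SE 0.55), and -1.80 and -4.23 without expanded leaf replicates 1 and 2. The other 3 oxidase genes were not called, although GLO1 was called higher in stamens without expanded leaf replicate 1 (1.01) and GLO3 lower without expanded leaf replicate 3 (-1.18). GLO4 read 6.24 to 6.42 at stage 2 and 8.72 to 8.94 at stage 6, and rose by 2.48 between them (SE 0.23, limma adjusted p = 3.74e-06), where 4.40% of all probe sets were called higher. GLO1, GLO3 and GLO4 were named after their values were seen.

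For each member gene, the probe set of highest mean was set against the other named genes that varied by at least 2-fold over the groups, by Pearson correlation over the 21 arrays. The values are descriptions only, since the arrays of a group share their tissue and the expanded leaf stands apart. Among 65 genes with a symbol of their own, RBCS was most like MYBS2, a MYB factor that acts on amylase genes (r = 0.95). RCAA1, ALDP and FBPase at LOC4332364 were most like SPO11-3 (r of 0.97, 0.96 and 0.98), with VIPP1, a thylakoid membrane protein, and LFNR1, a leaf ferredoxin-NADP reductase, next. CFBP1 was most like LFNR1 (r = 0.92). With the 3 expanded leaf arrays left out, a step added after the values were seen, RBCS and MYBS2 kept an r of 0.87 over 18 arrays. The leading matches of RCAA1, ALDP, FBPase and CFBP1 then had an r of -0.12, -0.61, -0.65 and -0.11.

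Naming candidates by synonym as well, also added after the values were seen, gave 1906 genes. RBCS was then most like CCDA2 (r = 0.96, and 0.89 without the expanded leaf), MYBS2 and ISPH, which acts in plastid isoprenoid synthesis (0.95 and 0.85). MYBS2 read 7.50 in the primordium, 8.02, 9.31, 8.97, 8.55 and 8.02 at stages 2 to 6 and 11.56 in the expanded leaf (group means), highest among the stamen stages at stage 3, as RBCS Os.12594.1.S1_x_at was. ALDP was most like the activase itself (r = 0.99 over 21 arrays and -0.11 without the expanded leaf).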

How the data were processed

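The deposited table holds RMA log2 values, the authors' own, per the submitters' processing notes, which give no version or build. RMA sets a common distribution on all arrays, so a change in total RNA is not seen, and the number of arrays limits the precision. The table has 57381 probe sets, of which 123 are controls. Of the rest, 22436 have 1 gene in the platform annotation, 95 have several and 34727 have none. Names were updated through the gene ID from RefSeq (ASM3414082v1), symbols and synonyms only. The model was limma 3.58.1 in R 4.3.3 with 7 group means on all 21 arrays, tested on simulated data. Its p-values rest on the spread between the 3 biological replicates, pooled over all 7 groups. Exact permutation tests used scipy 1.17.1. Named were all member probe sets, every Calvin cycle gene and up to 4 called genes of each other list by size. Of the 3 genes most like each member by symbol, all or only the leading one were named, and by synonym only some. The annotation lacks descriptions, so lists were filled by name. The members and lists were chosen with earlier results of these data known. Of 63 correlations of deviations between same-numbered arrays of different groups (-0.43 to 0.48), 17 were above 0.1. All 3 were above it only for the primordium and stage 2 (0.15 to 0.28), so the numbers were taken to pair no other groups, and the block changed no member call there. Alternatives covered normalization, centring, a filter on dim probe sets, the variance prior, array weights, a block, the 3' to 5' covariate, thresholds, fewer groups or stages, and each array left out. No sequence is shown.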

Additional observations from a re-analysis of the deposited data

How the results depend on the processing

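The counts of members called in the expanded leaf against the primordium and in stamens against the expanded leaf were 13 or 14 under every leave-one-out fit and stayed within 1.5 times the main counts under all alternatives tried, and the sign of no called member value turned. With no fold threshold, 5 members were lower in stamens than in the primordium (9101 of all 57258 probe sets), 2 lower (3671) and 1 higher (5347) at stage 6 than at stage 2, and 2 changed over the stages (6294). For stage 6 against stage 2, 0 members were lower with the 3' to 5' covariate and at an adjusted p under 0.01, and 0 to 1 with 1 array left out. Over the stages, 2 members changed with array weights, and 1 to 2 with 1 array left out (2 without stage 4 replicate 3 or stage 5 replicate 1). In the Calvin cycle list, 2 genes were lower in stamens than in the primordium with no fold threshold, and 0 were higher with probe sets averaged per gene. For stage 6 against stage 2, 2 of its genes were lower under quantile normalization, the covariate and no fold threshold, 0 at an adjusted p under 0.01 and with averaged probe sets, and 0 to 1 with 1 array left out (0 without stage 2 replicate 3 or stage 6 replicate 3). With replicate number as a block, 14, 14, 1 and 1 members were called in the 4 main comparisons and 1 over the stages, as without it, and 13326 against 13331 probe sets in stamens against the expanded leaf. Pairs of probe sets that differed numbered 13 to 15 of 17 with 1 array left out (13 without expanded leaf replicate 2 or 3) and 16 under quantile normalization. ALDP Os.5725.1.S1_at lost its call in the expanded leaf against the primordium when only those groups were fitted (limma adjusted p = 0.0504). CFBP1 Os.3408.1.A2_a_at was called above the primordium at stages 2, 3 and 4 with array weights (1.10, 1.06 and 1.04). The causes of these shifts were not tested.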
